A study of Mus musculus with 6 samples.

Results

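The liver turns dietary tryptophan into NAD through the kynurenine pathway, and 10 genes of that route were followed in the hepatocytes of fibrotic mice with and without FOXA2. Genes were chosen by name for their enzymes' place in the pathway, with earlier results of these data known. The 10 genes were Tdo2, Ido2, Afmid, Kmo, Aadat, Kynu, Haao, Acmsd, Qprt and Nadsyn1. Each matched 1 of the 34745 genes in the count files, and all 10 were among the 14417 genes with enough counts to test.

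The control group, FOXA2f/f+CCl4, comprised male mice of 12 weeks with loxP sites on both sides of Foxa2 that had been given a control AAV8-TBG virus. The FOXA2H-KO+CCl4 group comprised FOXA2f/f males of the same age that received AAV8-TBG-Cre, in which Cre is driven by the TBG promoter, so that deletion is directed to hepatocytes and other liver cells keep the gene. The virus preceded CCl4, a hepatotoxin, by 2 weeks, and both groups then received 0.25 ml/kg CCl4, 2 times per week for 4 weeks, so that no library came from an uninjured liver. Livers were taken on the third day after the final dose of CCl4. Hepatocytes from collagenase perfusion and low-speed centrifugation were sequenced in 3 libraries per group, which the labels number 1, 2 and 4. The labels do not state that each library came from a different mouse, so the p-values measure the spread between libraries.

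Tryptophan dioxygenase, encoded by Tdo2, opens the tryptophan ring and is the entry enzyme of the pathway in hepatocytes. The product is converted to kynurenine and then, through hydroxylation and cleavage, to an unstable intermediate that either closes spontaneously to quinolinate, the precursor of NAD, or is diverted by Acmsd towards oxidation. Tdo2 has long been used as a marker of the mature hepatocyte, and its transcription is known to respond to glucocorticoids.

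Promoter sequences are shown for the 2 members whose groups did not overlap in the results that follow: Tdo2, which holds a forkhead-type word, and Nadsyn1, which has none. Each line gives the 250 bases before the RefSeq transcription start on GRCm38.p6, 5′ to 3′ on the gene's own strand, with capitals marking the forkhead-type word. The Tdo2 window lies inside the GENCODE M21 span of the gene, which ends at base 81976202, so the 2 annotations differ in the start.
Tdo2, chr3:81975729-81975978, minus strand: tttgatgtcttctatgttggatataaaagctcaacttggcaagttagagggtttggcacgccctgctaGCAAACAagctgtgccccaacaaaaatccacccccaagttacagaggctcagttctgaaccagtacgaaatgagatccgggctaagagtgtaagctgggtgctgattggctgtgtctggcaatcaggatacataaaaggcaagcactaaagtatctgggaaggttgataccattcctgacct
Nadsyn1, chr7:143822853-143823102, minus strand: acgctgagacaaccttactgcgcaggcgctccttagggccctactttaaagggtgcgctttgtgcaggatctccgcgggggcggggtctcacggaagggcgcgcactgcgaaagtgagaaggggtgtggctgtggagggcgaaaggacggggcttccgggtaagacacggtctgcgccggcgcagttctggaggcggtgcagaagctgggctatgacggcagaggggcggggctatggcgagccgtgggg
RefSeq promoter entries of 7 members were examined. The forkhead-type words searched, on both strands, were TGTTTAC, its variant TGTTTGC, the word TATTTAC and, as the last variant, TATTTGC. Tdo2 had 1 match, TGTTTGC on the opposite strand, whose first base lay 182 bases before the RefSeq start. Any of the 4 words occurred in 11.9% of 32851 promoter windows of this length, so 1 of 7 members is a description of the letters and not of binding. The word TGTTCT, one arm of the glucocorticoid receptor element, was present in 1 of the 7 members, Haao, and in 16.1% of all windows.

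Foxa2 itself was examined first. Its counts were 442, 246 and 516 in FOXA2f/f libraries and 28, 19 and 35 in FOXA2H-KO libraries. The groups were far apart, and the Foxa2 level in FOXA2H-KO was 6.98% of that in FOXA2f/f (log2 fold change -3.85, SE 0.31, edgeR quasi-likelihood adjusted p = 0.0313). At an adjusted p under 0.05 and a fold change of at least 2, Foxa2 was the single gene called, or 0.00694% of the genes tested. The call of Foxa2 was lost without 5 of the 6 libraries, in turn (all but FOXA2f/f replicate 2), with adjusted p between 0.0624 and 0.499 and log2 fold changes between -4.17 and -3.63. With all 6 libraries, the adjusted p of Foxa2 was 4.05e-29 by DESeq2 and 5.2e-24 by the exact test of edgeR. It was 0.00067 by the quasi-likelihood test without a filter.

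Library totals ranged from 20983455 to 28327765 counts. The lowest count of any member in any library was 325, for which counting error alone is 5.55%, so that depth limited no member. Of the 8 hepatocyte markers none was at 0 and their summed level ranged from 110474 to 156991 CPM, the counts scaled to the depth of each library, in FOXA2f/f and from 108660 to 138687 in FOXA2H-KO. Alb supplied most of that sum, with means of 109009 CPM in FOXA2f/f and 100115 CPM in FOXA2H-KO. Log2 fold changes of the hepatocyte markers were below 0 for 7 of 8. Asgr1, the asialoglycoprotein receptor (mean 398 against 272 CPM), and Trf, transferrin (28.7 against 21.8 CPM), were lower in every FOXA2H-KO library, with edgeR adjusted p of 0.843 and 0.941. Summed macrophage markers (10 genes) ranged from 571 to 2671 CPM and from 1247 to 2034 CPM, endothelial markers (8) from 230 to 819 and from 477 to 532, and stellate markers (8) from 907 to 2346 and from 1402 to 2051. FOXA2f/f replicate 2 was lowest and FOXA2f/f replicate 4 highest in each of these 3 sums. Cholangiocyte markers (6) summed to between 174 and 367 CPM in FOXA2f/f and between 252 and 708 in FOXA2H-KO. Krt19 and Krt7, keratins of the bile duct, were higher in every FOXA2H-KO library (means 1.18 against 2.23 and 0.958 against 1.97 CPM). Both had few counts, for Krt19 33, 18 and 36 in FOXA2f/f against 92, 36 and 40 in FOXA2H-KO. Krt7 had 26, 10 and 38 against 77, 34 and 37. FOXA2H-KO replicate 1 was the highest library for both, and the edgeR adjusted p was 0.941 for each. Lymphocyte markers (8) stayed at or below 6.74 CPM in sum, and neutrophil and dendritic markers (8) ranged from 10.6 to 68.0 and from 24.6 to 35.2. Groups did not overlap for 10.5% of all genes tested. Of the stellate markers 1 was lower in every FOXA2H-KO library, although 6 of 8 were above 0. Of 7 tested neutrophil and dendritic markers 2 were higher in every FOXA2H-KO library. At an unadjusted p under 0.05 (edgeR), 1 of those 7 was higher and 2 were lower, beside 1.98% and 3.18% of all genes tested. With the same threshold, 2 of 5 tested cholangiocyte markers were higher and 1 of 8 hepatocyte markers was lower. No macrophage, endothelial, stellate or lymphocyte marker had such a p. The groups overlapped for each tested macrophage, endothelial and lymphocyte marker. Alb, Asgr1, Trf, Krt19 and Krt7 were named after their values were seen. No marker of the 7 lists was at 0 in every library, although some lymphocyte and neutrophil markers had 0 counts in some libraries. In bulk libraries, fewer cells of a type and less RNA per cell cannot be told apart.

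Tdo2, a minus-strand gene of chromosome 3 (bases 81957090 to 81976202 of GRCm38), was the member that differed most. Its level was 1354, 1323 and 1223 CPM in FOXA2f/f replicates 1, 2 and 4, and 1938, 2150 and 2433 CPM in FOXA2H-KO replicates 1, 2 and 4. Every FOXA2H-KO library was thus above every FOXA2f/f library, and the gap between the groups was wider than the range within either. The mean was 1300 ± 68.5 CPM (SD, n = 3) in FOXA2f/f and 2173 ± 248 CPM in FOXA2H-KO, a fold change of 1.67 with a 95% interval from 1.22 to 2.29. On the log2 scale the difference was 0.74 (SE 0.19, unadjusted p = 0.00557), and the edgeR quasi-likelihood adjusted p over all genes tested was 0.65, so Tdo2 did not pass the threshold. DESeq2 gave the same difference, 0.74, with an adjusted p of 0.00262, and at its adjusted p under 0.05 with no fold threshold 0.594% of genes were called, Tdo2 the single member among them. The exact test of edgeR gave an adjusted p of 0.0789. The log2 difference of Tdo2 kept its sign in all 14 alternatives, between 0.66 and 0.86, and its adjusted p ranged from 0.00262 to 1.00.

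The part of the marker genes of other cells in the Tdo2 difference was not tested. By unadjusted p, Tdo2 was at rank 122 of the 14417 genes tested.

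**Figure D1:**
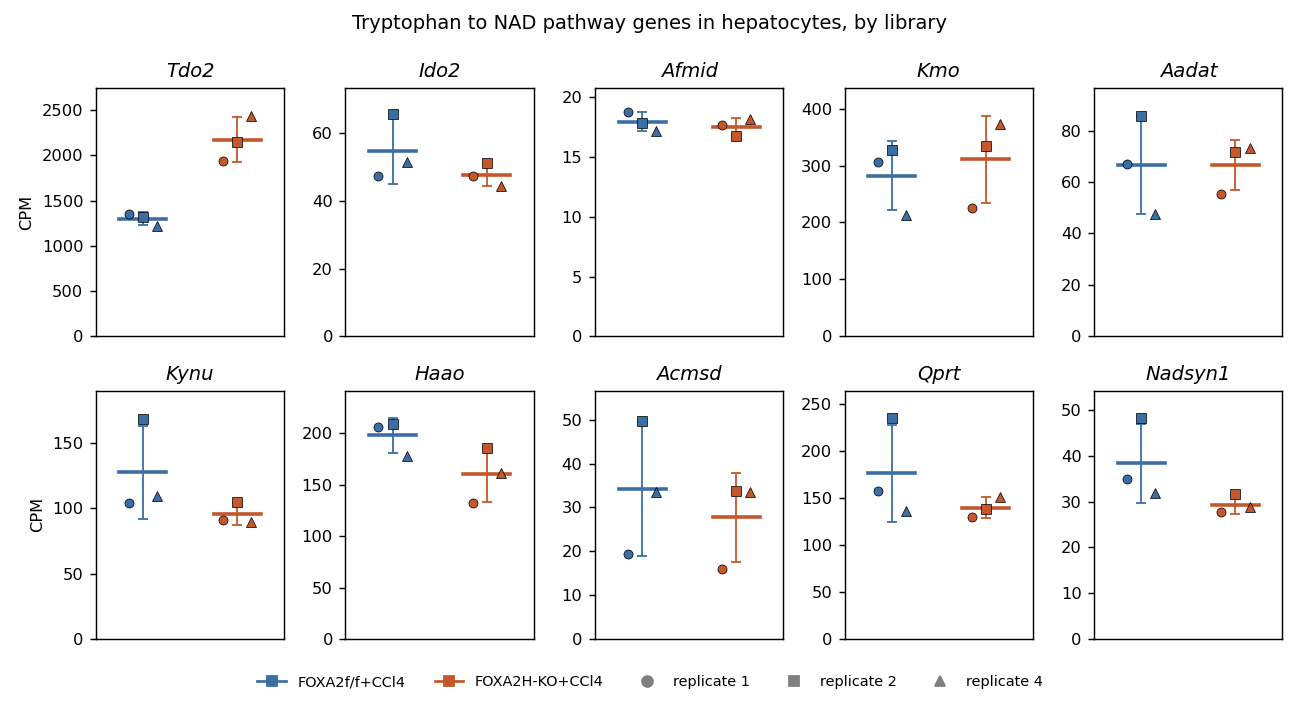
CPM of the 10 pathway genes in each library, on linear axes that start at 0. Points are libraries, shaped by replicate number and coloured by group, and bars are the mean ± SD of 3 libraries. The 3 FOXA2H-KO points of Tdo2 (1938 to 2433 CPM) lie above the 3 FOXA2f/f points (1223 to 1354 CPM), whereas for 8 of the other 9 genes the groups overlap.

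Ido2, a second ring-opening dioxygenase related to Ido1, measured 47.2, 65.5 and 51.3 CPM in FOXA2f/f and 47.2, 51.1 and 44.5 CPM in FOXA2H-KO. The groups overlapped (log2 fold change -0.20, SE 0.15, edgeR adjusted p = 0.983). Ido1, its neighbour on the chromosome and the dioxygenase of immune and other extrahepatic cells, had at most 1 count per library and was not tested. The transcripts for the first step in these hepatocytes were therefore almost entirely Tdo2, at 250 ± 21.02 FPKM in FOXA2f/f against 8.39 ± 1.30 FPKM for Ido2.

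Afmid, the formamidase that releases kynurenine, was the steadiest member. It measured 18.8, 17.8 and 17.2 CPM in FOXA2f/f and 17.7, 16.7 and 18.2 CPM in FOXA2H-KO. The fold change was 0.977 with a 95% interval from 0.796 to 1.20 (edgeR adjusted p = 0.993), and its sign turned in 4 alternatives. In GENCODE M21, 44.2% of its exon bases are shared with Gm20708, a read-through gene on the same strand listed with 0 counts in all libraries, and 2.35% with Tk1 on the opposite strand, so the Afmid count is uncertain. Tk1, which could share reads, measured 50.3 ± 2.77 CPM in FOXA2f/f and 50.7 ± 4.52 CPM in FOXA2H-KO.

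At kynurenine the route divides. Kmo, the hydroxylase that leads on to NAD, measured 306, 327 and 213 CPM in FOXA2f/f and 225, 334 and 373 CPM in FOXA2H-KO. Both groups held a low and 2 higher libraries, and the difference of 0.14 on the log2 scale (SE 0.24, edgeR adjusted p = 0.99) was smaller than its error. Aadat, an aminotransferase that can turn kynurenine into kynurenate, measured 67.1, 85.7 and 47.5 CPM against 55.5, 71.5 and 73.1 CPM. Its fitted fold change was 1.00 with a 95% interval from 0.697 to 1.44. Within each library the log2 ratio of Kmo to Aadat, from FPKM with 0.1 added, was 0.06 ± 0.14 in FOXA2f/f and 0.16 ± 0.17 in FOXA2H-KO (SD, n = 3, exact two-sided permutation p = 0.4, adjusted over 3 ratios 0.6). With 3 libraries against 3 the smallest p of this test is 0.1.

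Kynu, the kynureninase that removes alanine from the side chain, measured 104, 169 and 110 CPM in FOXA2f/f and 91.0, 105 and 89.8 CPM in FOXA2H-KO. The groups met at 1 point, where FOXA2H-KO replicate 2 (104.9 CPM) reached just above FOXA2f/f replicate 1 (104.2 CPM). The fold change was 0.747 with a 95% interval from 0.538 to 1.04 (log2 -0.42, SE 0.20, edgeR adjusted p = 0.941). Without FOXA2f/f replicate 2, the highest library, the log2 difference of Kynu was -0.17.

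Haao, the dioxygenase that makes the direct precursor of quinolinate, measured 206, 209 and 178 CPM in FOXA2f/f and 132, 186 and 162 CPM in FOXA2H-KO. A single FOXA2H-KO library, replicate 2, lay above the lowest FOXA2f/f library (log2 fold change -0.31, SE 0.17, edgeR adjusted p = 0.955). The 95% interval of the fold change was 0.618 to 1.06.

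Acmsd and Qprt compete at the next branch, the first by removing the intermediate towards oxidation and the second by committing quinolinate to NAD. Acmsd was the most variable member, at 19.3, 49.8 and 33.6 CPM in FOXA2f/f and 16.0, 33.7 and 33.4 CPM in FOXA2H-KO. Replicate 1 was low in both groups, although the labels do not state that a shared number pairs libraries. The difference of -0.30 on the log2 scale had an SE of 0.39 (edgeR adjusted p = 0.983), and its 95% interval of the fold change, 0.435 to 1.51, was the single one among the 9 members beside Tdo2 to extend beyond 2-fold in either direction.

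Qprt measured 157, 234 and 136 CPM in FOXA2f/f and 130, 138 and 151 CPM in FOXA2H-KO, with overlap (log2 fold change -0.33, SE 0.21, edgeR adjusted p = 0.983). Without FOXA2f/f replicate 2 its log2 difference was -0.07. The log2 ratio of Acmsd to Qprt within a library, from FPKM with 0.1 added, was -2.32 ± 0.53 in FOXA2f/f and -2.31 ± 0.52 in FOXA2H-KO (SD, n = 3, exact two-sided permutation p = 0.9, adjusted 0.9). The mean ratio was 0.208 in FOXA2f/f and 0.21 in FOXA2H-KO before taking logs, so that Qprt transcripts outnumbered those of Acmsd per length in both groups.

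Nadsyn1, the synthetase that completes NAD by amidation, measured 35.0, 48.3 and 32.0 CPM in FOXA2f/f and 27.7, 31.6 and 28.8 CPM in FOXA2H-KO. All 3 FOXA2H-KO libraries were below the FOXA2f/f libraries, by a margin of less than 1 CPM at the nearest pair. The fold change was 0.765 with a 95% interval from 0.576 to 1.02 (log2 -0.39, SE 0.18, unadjusted p = 0.0607, edgeR adjusted p = 0.941). Without FOXA2f/f replicate 2 the log2 difference was -0.19. On the deposited FPKM scale, which carries no correction for composition, the groups overlapped (6.20, 8.19 and 6.93 against 6.07, 6.27 and 5.58 FPKM).

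Counted together, 0 of the 10 members were called at an adjusted p under 0.05 and a 2-fold change, beside 0.00694% of all genes tested, which was Foxa2 alone. At an unadjusted p under 0.05 there was 1, Tdo2, against 5.17% of all genes tested, of which 1.98% were higher and 3.18% lower in FOXA2H-KO. The groups did not overlap for 2 members, Tdo2 above and Nadsyn1 below, against 10.5% of all genes (4.54% higher, 5.96% lower). With 10 genes, counts of 1 and 2 do not set the members apart from these backgrounds. Without FOXA2f/f replicate 4 there were 4 members with an unadjusted p under 0.05 (Tdo2, Kynu, Qprt and Nadsyn1), but in that fit 16.6% of all genes tested had one. There were 2 (Tdo2 and Kynu) without FOXA2f/f replicate 1, against 4.1% of all genes. Fitted differences were below 0 for 7 members, and for 7525 of the 14417 genes tested (52.2%). The median log2 fold change of the members was -0.25, and -0.30 for the 9 without Tdo2, beside -0.01 over all genes. One library carried much of that median. FOXA2f/f replicate 2 was the highest of the 6 libraries for 7 members and the highest FOXA2f/f library for 8, and without it the members' median was -0.04. The same library had the lowest macrophage, endothelial and stellate marker sums, and the part of this in the members' median was not tested.

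**Figure D2:**
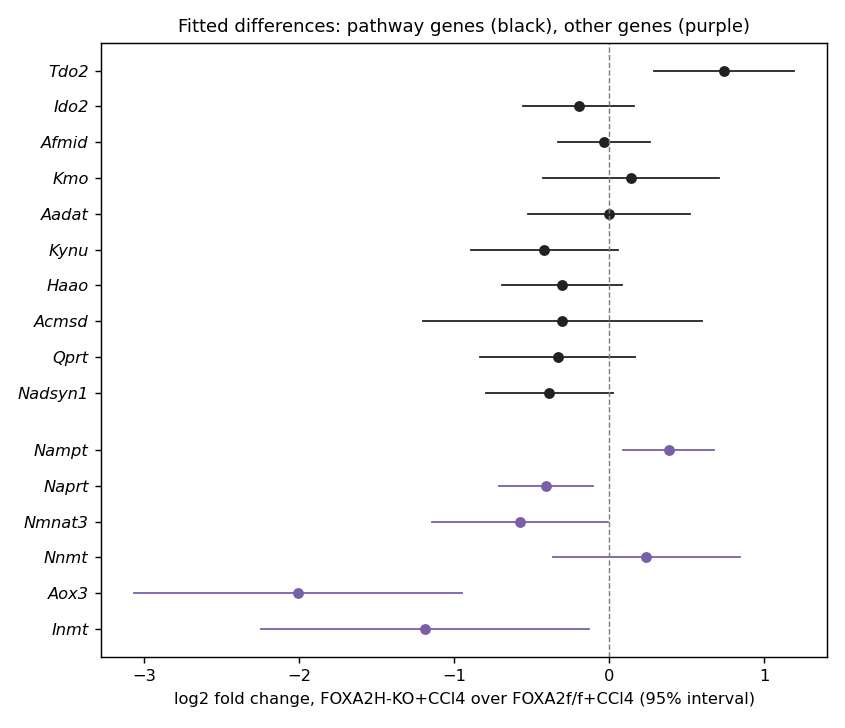
Fitted log2 fold change of FOXA2H-KO+CCl4 over FOXA2f/f+CCl4 with its 95% interval, for the 10 pathway genes in pathway order (black) and 6 other genes of NAD and tryptophan metabolism (purple). Of the 10 pathway intervals, that of Tdo2 (0.29 to 1.19) is the one that does not include 0.

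Levels between genes were compared per length, as the deposited FPKM. In FOXA2f/f the order was Tdo2 (250 ± 21.02 FPKM, SD, n = 3), Haao (155 ± 6.42), Qprt (55.1 ± 10.9), Kmo (36.4 ± 3.54), Aadat (35.2 ± 6.18), Kynu (17.7 ± 3.78), Acmsd (11.6 ± 4.75), Ido2 (8.39 ± 1.30), Nadsyn1 (7.11 ± 1.01) and Afmid (3.31 ± 0.348). The order of the means was the same in FOXA2H-KO. Over the 6 libraries the ranges of Tdo2 and Haao, of Haao and Qprt, of Aadat and Kynu, and of Nadsyn1 and Afmid did not overlap. Neighbours from Qprt to Aadat and from Kynu to Nadsyn1 overlapped, and their order is not resolved. The place of Haao depended on the gene length. The FPKM of Haao implies a length of 1222 bases, whereas its exons in GENCODE M21 sum to 4681 bases, and with M21 lengths Haao took rank 4 in FOXA2f/f, below Qprt and Kmo.

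**Figure D3:**
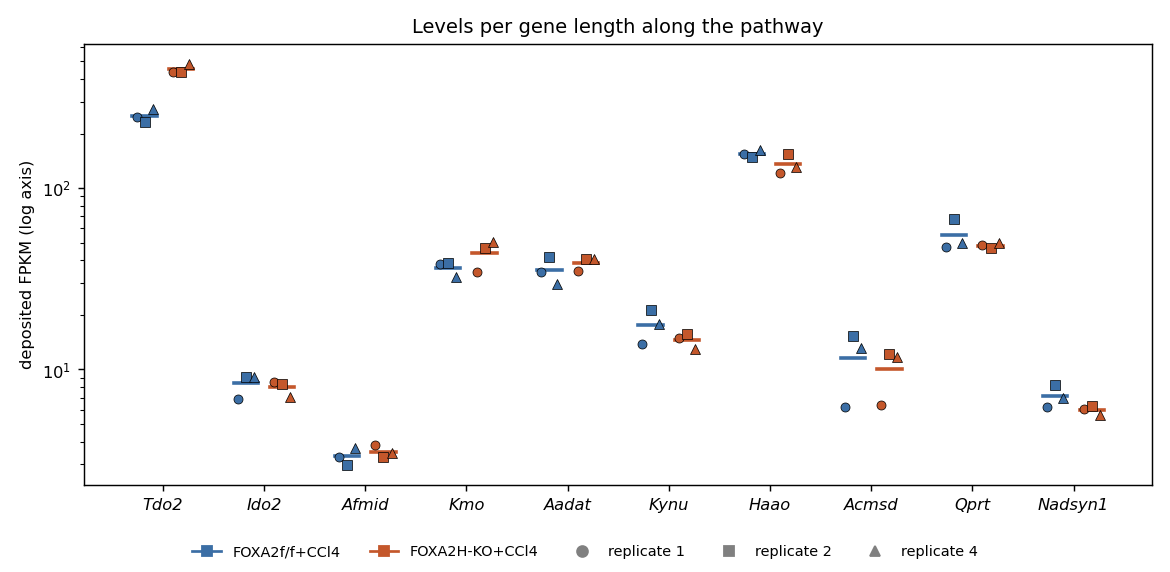
Deposited FPKM of the 10 genes in pathway order, on a log axis, with 1 point per library and a bar at each group mean. Tdo2 is the most abundant transcript in both groups (250 and 453 FPKM on average) and Afmid the least abundant (3.31 and 3.52 FPKM).

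The balance among the 10 transcripts was described through the share of Tdo2. Tdo2 made up 44.3%, 39.4% and 45.6% of the members' summed FPKM in FOXA2f/f and 61.0%, 56.7% and 60.7% in FOXA2H-KO. The share was 43.1% ± 3.28 against 59.4% ± 2.38 (SD, n = 3), and the groups were well apart. The summed FPKM of the other 9 members was 330 ± 22.6 in FOXA2f/f and 309 ± 27.9 in FOXA2H-KO. With M21 lengths the share of Tdo2 was 56.3% ± 4.42 against 70.4% ± 1.58. A ratio within a library does not depend on the scaling between libraries, and the log2 ratio of Tdo2 to another member was higher in FOXA2H-KO by between 0.61, for Kmo, and 1.12, for Kynu. For 8 of the 9 ratios, all except that to Acmsd, every FOXA2H-KO library was above every FOXA2f/f library. These 9 ratios and the share were examined after the values of Tdo2 had been seen, share Tdo2, and carry no test.

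**Figure D4:**
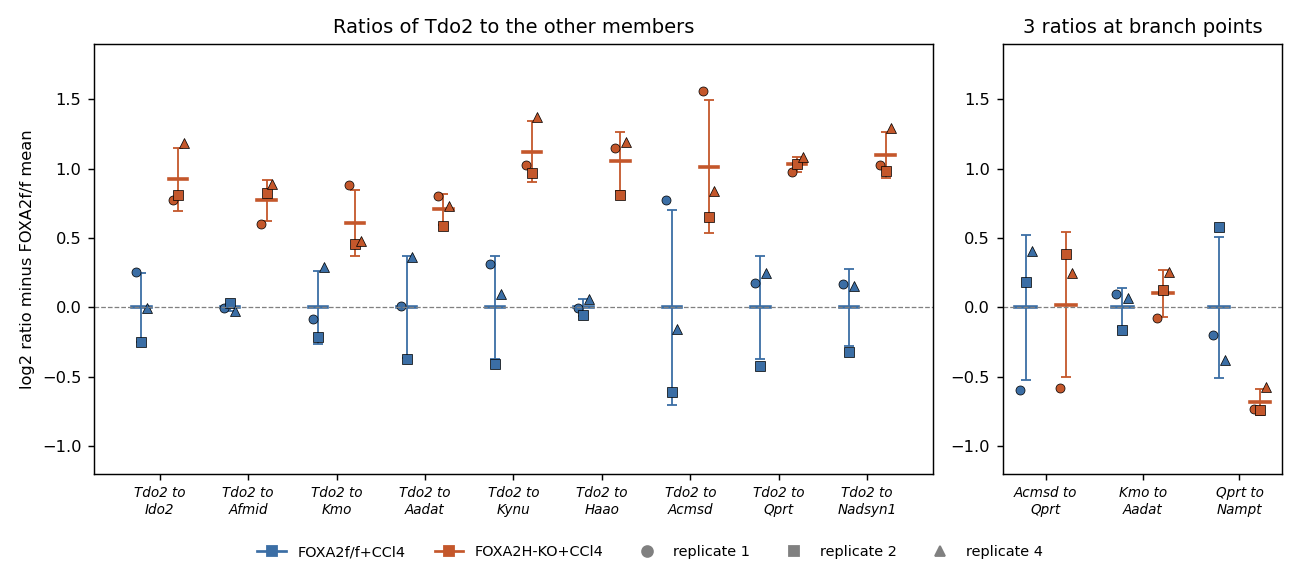
Log2 ratios within each library, from FPKM with 0.1 added, minus their FOXA2f/f mean, for Tdo2 to each other member and for the 3 ratios at branch points. Points are libraries and bars are the mean ± SD of 3. Differences of the Tdo2 ratios lie between 0.61 and 1.12, and the Acmsd to Qprt ratio differs by 0.02.

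NAD can also be rebuilt from nicotinamide and nicotinate, and those genes, with other enzymes around tryptophan, were examined in 5 wider lists of 53 genes, of which 47 were tested. None was called. At an unadjusted p under 0.05 there were 5 (1 higher, 4 lower), or 10.6% of the genes tested beside 5.17% of all genes, and the groups did not overlap for 7 (1 higher, 6 lower), beside 10.5% of all genes (4.54% higher, 5.96% lower). The count of 5 was 11 without FOXA2f/f replicate 4, where 16.6% of all genes had an unadjusted p under 0.05. It was 3 without FOXA2f/f replicate 1 (4.1% of all genes) and 3 without FOXA2H-KO replicate 2 (4.22% of all genes). The median log2 fold change over the 47 genes was -0.12, and 34 were below 0. Adjusted p-values (edgeR) ran from 0.579 to 1.00.

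Nampt, the rate-limiting enzyme of NAD salvage from nicotinamide, measured 122, 105 and 119 CPM in FOXA2f/f and 145, 156 and 151 CPM in FOXA2H-KO. All FOXA2H-KO libraries were higher, with a fold change of 1.31 and a 95% interval from 1.07 to 1.60 (log2 0.38, SE 0.13, unadjusted p = 0.0167, edgeR adjusted p = 0.815). The log2 ratio of Qprt to Nampt, the quinolinate step of synthesis from tryptophan against salvage, was 1.16 ± 0.51 in FOXA2f/f and 0.48 ± 0.10 in FOXA2H-KO (SD, n = 3). The groups did not overlap, with a difference of -0.68 (exact two-sided permutation p = 0.1, the smallest possible, adjusted 0.3). Without FOXA2f/f replicate 2 that difference was -0.39.

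Naprt, which starts salvage from nicotinate, measured 68.0, 55.8 and 60.9 CPM in FOXA2f/f and 42.4, 49.5 and 47.3 CPM in FOXA2H-KO. The groups were separate, in the direction opposite to Nampt (log2 fold change -0.41, SE 0.13, unadjusted p = 0.0144, edgeR adjusted p = 0.794). In M21, 11.8% of the Naprt exon bases are shared with Eef1d on the same strand, which makes its count less certain. Of the other genes of the salvage list, Nmrk1, Slc12a8 and Slc25a51 were tested and none had an unadjusted p under 0.05, Nmrk2 had too few counts to test, and Pnp matched no symbol.

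Nmnat3, an adenylyltransferase that forms the dinucleotide in mitochondria, measured 6.19, 4.99 and 3.97 CPM in FOXA2f/f and 3.24, 3.81 and 3.10 CPM in FOXA2H-KO. The groups nearly met, and the unadjusted p was 0.048 (log2 fold change -0.58, SE 0.24, edgeR adjusted p = 0.941). Of the 7 tested genes in that list of other enzymes of the route, which also held Kyat1, Kyat3, Got2, Nmnat1, Nadk and Nadk2, 6 were below 0.

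Among 15 tested genes of NAD use and nicotinamide disposal, Aox3, a liver aldehyde oxidase, differed most. It measured 247, 740 and 303 CPM in FOXA2f/f and 150, 93.9 and 76.8 CPM in FOXA2H-KO. FOXA2f/f replicate 2 was more than double the other libraries, yet the lowest FOXA2f/f value was still above the highest FOXA2H-KO value. The mean in FOXA2H-KO was 24.9% of that in FOXA2f/f (log2 fold change -2.01, SE 0.45, unadjusted p = 0.00249, edgeR adjusted p = 0.579). DESeq2 and the exact test of edgeR called Aox3, with adjusted p of 0.00156 and 0.00939. Without FOXA2f/f replicate 2 the log2 difference was -1.36.

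Nnmt, which methylates nicotinamide for excretion, measured 99.2, 62.7 and 76.2 CPM against 62.2, 105 and 114 CPM, with overlap (log2 fold change 0.24, SE 0.26, edgeR adjusted p = 0.983). The NAD-dependent mitochondrial deacylases Sirt4 (mean 6.32 against 5.44 CPM) and Sirt5 (9.83 against 6.91 CPM) did not overlap between groups, with unadjusted p of 0.264 and 0.0539 from edgeR. The other tested genes of that list, among them Sirt1, Sirt3, Parp1 and Cd38, overlapped.

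Of 10 tested genes for tryptophan uptake and its other fates, Inmt, a methyltransferase that acts on indoleamines, measured 432, 1177 and 470 CPM in FOXA2f/f and 229, 454 and 226 CPM in FOXA2H-KO. The groups overlapped by 1 library, and FOXA2f/f replicate 2 again stood above all others (log2 fold change -1.19, SE 0.46, unadjusted p = 0.0319, edgeR adjusted p = 0.916). Without that library the log2 difference was -0.57. Slc7a5, a transporter of large neutral amino acids, was low in all libraries, and its means of 4.14 and 2.74 CPM did not overlap between groups (unadjusted p = 0.0634, edgeR). The 10 tested genes of the glutarate branch, which oxidises the carbon that Acmsd diverts, had 8 values below 0, a median log2 fold change of -0.15 and none with an unadjusted p under 0.05.

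**Figure D5:**
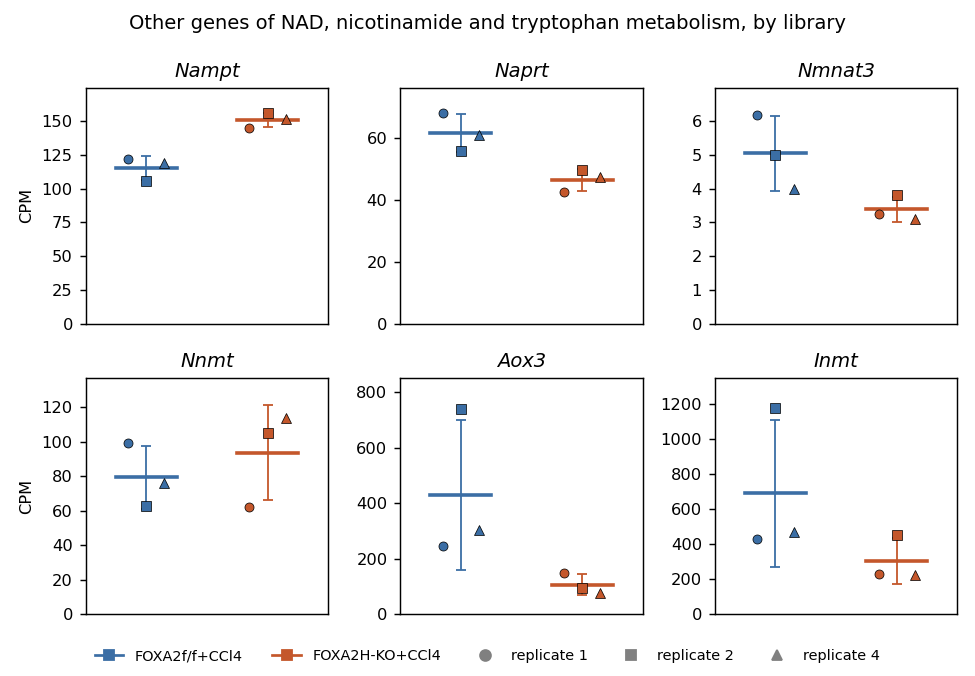
CPM of Nampt, Naprt, Nmnat3, Nnmt, Aox3 and Inmt in each library, on linear axes that start at 0, with the mean ± SD of 3 libraries per group. Nampt (105 to 122 against 145 to 156 CPM) is higher in all FOXA2H-KO libraries, Naprt, Nmnat3 and Aox3 are lower in all of them, and FOXA2f/f replicate 2 lies far above the rest for Aox3 and Inmt.

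Genes that are known to share inputs with Tdo2 were set beside it as a description. Of 12 glucocorticoid-responsive genes, 10 were above 0 with a median log2 fold change of 0.22, and 1 had an unadjusted p under 0.05. Over all genes tested, 6892 of 14417 were above 0 and 5.17% had such a p. The gene among the 12 was Fkbp5, a co-chaperone of the receptor, at 73.6, 60.1 and 172 CPM in FOXA2f/f and 150, 210 and 308 CPM in FOXA2H-KO, with overlap (log2 fold change 1.13, SE 0.43, edgeR adjusted p = 0.916). The next by p, the kinase gene Sgk1, had a log2 fold change of 0.54 (SE 0.29, edgeR adjusted p = 0.952). Tat, the tyrosine aminotransferase and a textbook hepatic target of glucocorticoids, measured 1247, 1670 and 2367 CPM against 1146, 1585 and 2481 CPM, nearly the same range in both groups (edgeR adjusted p = 0.999). Tat was chosen after its values were seen.

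Position along the lobule was described in the same way. Of 11 tested pericentral genes 8 were above 0, with a median of 0.29, and 2 had an unadjusted p under 0.05, to be read beside the same values over all genes. Oat, ornithine aminotransferase, measured 26.1, 14.2 and 35.4 CPM in FOXA2f/f and 89.9, 103 and 89.6 CPM in FOXA2H-KO, a wide separation (fold change 3.72, 95% interval 2.29 to 6.03, unadjusted p = 0.000277, edgeR adjusted p = 0.539). Lhpp, a low-abundance phosphatase transcript, had a log2 fold change of 1.04 (SE 0.37, edgeR adjusted p = 0.837). Of 12 periportal genes 4 were above 0, with a median of -0.06, and 1 had an unadjusted p under 0.05 (edgeR). That gene, Aldh1b1, a mitochondrial aldehyde dehydrogenase, measured 272, 370 and 212 CPM in FOXA2f/f and 181, 191 and 155 CPM in FOXA2H-KO. Its groups did not overlap (log2 fold change -0.70, SE 0.22, unadjusted p = 0.0143, edgeR adjusted p = 0.794). Hsd17b13, a lipid droplet enzyme, had a log2 fold change of 0.44 (SE 0.23, edgeR adjusted p = 0.952).

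The 7 regulators examined, among them Hnf4a, Cebpa and the glucocorticoid receptor gene Nr3c1, gave no unadjusted p under 0.05. The 2 smallest belonged to Ppara, a nuclear receptor of fatty acid metabolism (log2 fold change 0.36, SE 0.20, edgeR adjusted p = 0.957), and Cebpb (0.35, SE 0.30, edgeR adjusted p = 0.983). The median log2 fold change of the 7 genes was -0.0047.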

How the data were processed

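Gene counts and FPKM of 6 hepatocyte RNA-seq libraries were used. Per the submitters' processing notes, CASAVA 1.8, TopHat2 2.1.0, HTSeq and edgeR were used with mm10. The deposited counts are whole fragments per gene without normalization, and the authors' FPKM are those counts per library total and gene length, without other scaling. A deposited table of the whole series was not used. The TruSeq kit does not mark strand.

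The quasi-likelihood test of edgeR 4.0.16, run under R 4.3.3 after filterByExpr and TMM scaling, was applied to the counts, with Benjamini-Hochberg adjustment over all genes tested. CPM, the counts divided by the TMM-scaled library size and expressed per 1000000 counts, were used for levels. A gene was called at an adjusted p under 0.05 and a 2-fold change. Ratios from FPKM with 0.1 added were compared by exact permutation. Scripts were tested on simulated data. Alternatives were DESeq2 1.42.0, edgeR's exact test, other scalings, no filter, limma 3.58.1 on log2(FPKM + 1) and log2(FPKM + 0.1) at a mean FPKM of at least 1, a replicate block and each library left out. Calls without a fold threshold by DESeq2 and the exact test, M21 lengths, and the alternatives for Foxa2 and for single genes of the wider lists were added after seeing the data.

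The members and lists were chosen with earlier results of these data known. Named genes are Foxa2, the members, Nampt, Nnmt, Ido1, each gene of the wider lists with an unadjusted p under 0.05 or separate groups, and the 2 with the smallest p of the glucocorticoid, pericentral, periportal and regulator lists. Tk1 and Gm20708 were given because they share exon bases with Afmid. Alb, Asgr1, Trf, Krt19, Krt7 and Tat were chosen after their values were seen. Others are listed without values. GENCODE M21 on GRCm38 gave gene overlaps and lengths, and RefSeq the promoters. Some genes and sequences of these lists are not reported here.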

Additional observations from a re-analysis of the deposited data

How the results depend on the processing

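At an adjusted p under 0.05 and a 2-fold change 0 members were called under each of the alternatives run, and DESeq2 without a fold threshold called 1 (Tdo2). The largest log2 difference of a member in any alternative was 0.86, for Tdo2. No member thus reached a 2-fold change, and that threshold by itself kept every member from being called. Members with an unadjusted p under 0.05 numbered 1 in each alternative other than leave-one-out, and between 1 and 4 with 1 library left out (4 without FOXA2f/f replicate 4, 2 without FOXA2f/f replicate 1). The members' median ranged from -0.29 to -0.041 with a library left out (-0.041 without FOXA2f/f replicate 2). Members whose groups did not overlap numbered 1 with library size alone, 1 on FPKM and 3 with the upper quartile, instead of 2. The wider lists gave 3 genes with library size alone, 2 on log2(FPKM + 1), 2 on log2(FPKM + 0.1) and 3 to 11 with a library left out (11 without FOXA2f/f replicate 4). Shares over all genes were not computed with other scalings or on FPKM. The counts of members and of list genes under those settings therefore cannot be read against a background. Genes called over all tested numbered 75 by DESeq2, 64 by the exact test and 0 to 6 with a library left out.

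Signs turned for Afmid (0.087 with library size alone, 0.069 on log2(FPKM + 1), 0.087 on log2(FPKM + 0.1), -0.064 to 0.015 leaving out libraries), Kmo (-0.027 to 0.33), Acmsd (-0.57 to 0.067) and Aadat (-0.20 to 0.22), and for the Acmsd to Qprt ratio (-0.28 to 0.32). Foxa2 kept its direction but missed the adjusted p with library size alone (-3.74), on log2(FPKM + 1) (-1.95) and log2(FPKM + 0.1) (-3.38), with the replicate block (-3.88), and without 5 of the libraries (-4.17 to -3.63). Foxa2 was called by DESeq2 (-3.86), the exact test (-3.85), without a filter (-3.85) and with the upper quartile (-3.84). Library size alone and FPKM moved the median of all genes to 0.10 and 0.11. The cause of these changes was not tested.

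Deviations from the group means had correlations of -0.07, 0.03 and -0.23 between same-numbered libraries. Centring on groups of 3 libraries constrains these values, so they cannot exclude pairing. The labels state no pairing. With the replicate block, 0 genes were called over all tested, 0 members were called and Tdo2 had a log2 fold change of 0.74 (edgeR adjusted p = 0.909). Depth limited no member.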
